A study of Bos taurus with 8 samples.

Results

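The genes described here serve water and sodium transport across the wall of the blastocyst. They are the aquaporins AQP1, AQP3 and AQP11 and the β subunits ATP1B1, ATP1B2 and ATP1B3 of the sodium-potassium ATPase. The list was fixed by gene name, and every array probe whose RefSeq transcript accession belongs to a listed gene was taken. This gave 10 of the 43653 probes on the array, for 5 of the 6 listed genes, among 12603 genes named by any probe. ATP1B1 had no named probe and was not analysed here. Of the 5 genes with a probe, 4 were tested between cell types, and ATP1B2 was not, because its signal was not well above background on any array.

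The trophectoderm, the outer epithelium of the blastocyst, pumps sodium into the space beneath it with the sodium-potassium ATPase, and water follows through aquaporins, so that the blastocoel fills. The catalytic α subunit of the pump reaches the cell membrane only when paired with a β subunit, and small FXYD proteins tune the assembled pump. AQP3 passes glycerol as well as water and is a typical channel of epithelia, AQP11 lies mainly in membranes inside the cell, and AQP1 is the water channel of red cells, endothelium and many stromal cells.

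RNA of 8 cultures of HanWoo cattle cells was labelled with Cy3 and hybridized to bovine Agilent oligo arrays, 1 culture per array. The eSLCs (embryo-derived stem-like cells) were colonies from blastocysts freed of the zona, kept on murine STO feeder cells that had been stopped with mitomycin-C, in 3i medium with the MEK inhibitor PD184352, the FGF receptor inhibitor SU5402 and the GSK3 inhibitor CHIR99021. IVP-eSLCs came from embryos fertilized in vitro (line I2 at passage 35 and line I9 at passage 30), NT-eSLCs from embryos made by nuclear transfer of ear skin cells (N2 at passage 36 and N7 at passage 30), and PA-eSLCs from parthenogenetic embryos (line P1, passage 31, and line P4, passage 36). SCs, somatic cells whose tissue the labels do not give, were grown in DMEM with fetal bovine serum and sampled at passages 5 and 10 (SC P5 and SC P10). Each line carries the number of 1 colony, and the labels do not say that the 2 arrays of an origin or of SCs were independent cultures, so the p-values below measure the spread between these arrays only. Slide 1 carried the IVP lines I2 and I9 with N7 and SC P5, and slide 2 carried the PA lines P1 and P4 with N2 and SC P10, so that IVP- and PA-eSLCs shared no slide.

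Signals are given as the background-subtracted intensity of a probe relative to the 75th percentile of all probes on the same array, which is set to 1000. Between 71.2% and 76.7% of the probes of an array were well above background by the scanner software. Values under a floor of 13.3 were raised to it before logarithms were taken, and signals of different probes are not compared with each other. Of 9 tested trophectoderm markers, 7 were higher in eSLCs than in SCs, with a summed signal of 374800 to 1144000 against 14290 and 15320. Of the pluripotency markers, POU5F1 reached 30.7 to 898 in eSLCs and 16.3 and 26.0 in SCs, and none of the 3 tested (POU5F1, NANOG, SOX2) was higher, while SOX2 was lower (46.8 to 99.4 against 459 and 551). SCs carried fibroblast markers, of which 7 of 9 were lower in eSLCs. A gene is said to be called, or higher or lower, when the adjusted p of limma (Benjamini-Hochberg over 10949 genes) was under 0.05 and the difference at least 2-fold.

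Against SCs, eSLCs carried more RNA of AQP3, AQP11 and ATP1B3 and less of AQP1. All 4 tested genes were called, 3 higher and 1 lower. Of all genes tested, 19.7% were called higher and 15.7% lower. Every eSLC array lay above both SC arrays for AQP3, AQP11 and ATP1B3, as it did for 34.0% of all genes tested, and below both for AQP1, as for 23.6%. The 4 differences had a median of 5.25 on the log2 scale, while the median of all genes tested was 0.23.

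**Figure D1:**
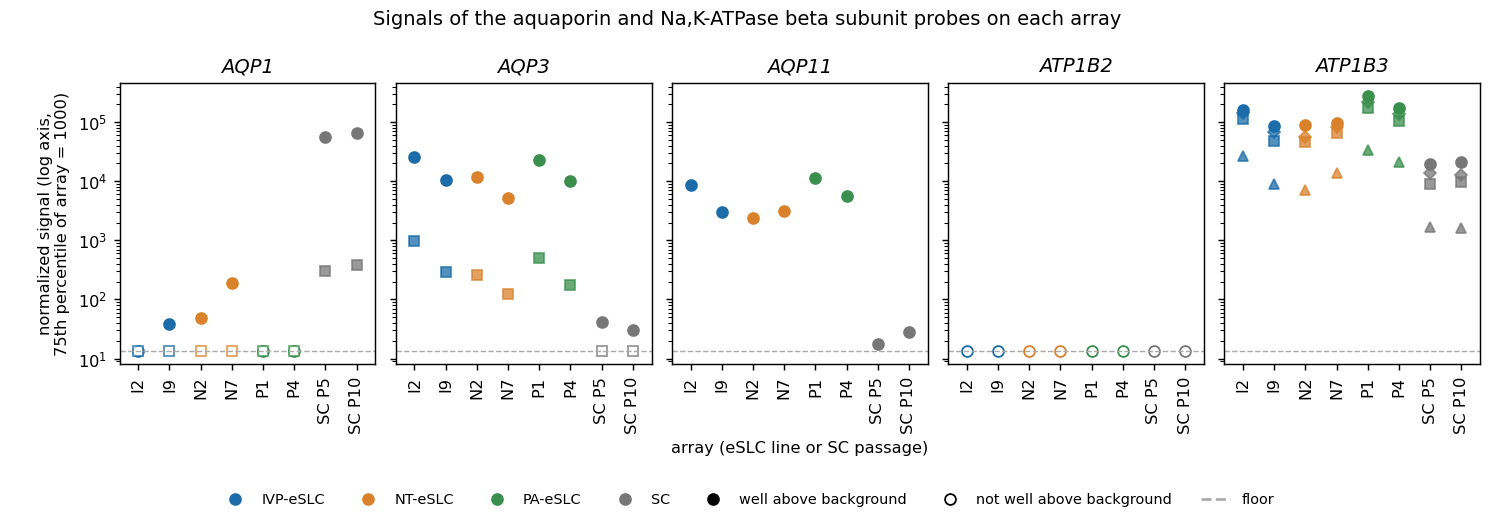
Normalized signal (log axis, the 75th percentile of each array at 1000) of every named probe of AQP1, AQP3, AQP11, ATP1B2 and ATP1B3 on the 6 eSLC arrays and the 2 SC arrays. Circles are the brightest probe of a gene and other shapes its further probes, open symbols are not well above background, and values under the dashed floor of 13.3 are drawn on it. AQP3, AQP11 and ATP1B3 sit higher in all 6 eSLC lines than in SCs, AQP1 is bright in SCs alone, and ATP1B2 is at the floor on all 8 arrays.

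AQP3, the epithelial channel for water and glycerol, gave signals of 25840 in I2, 10450 in I9, 11940 in N2, 5248 in N7, 23270 in P1 and 10030 in P4. In SC P5 the signal was 40.8 and in SC P10 it was 30.2, so that the cell types did not overlap and the SC arrays lay close to the lower limit of measurement. The difference, eSLCs minus SCs, was 8.49 on the log2 scale (SE 0.53, 95% interval 7.18 to 9.79), a 358-fold higher signal, with an adjusted p of 0.00011 (limma). A further AQP3 probe, A_73_P263201, ranged from 122 in N7 to 978 in I2 and was not well above background in either SC array. In place of the brighter probe, it entered the test through the eSLC arrays alone (adjusted p = 0.00223, limma). Its signal was at least 36.2-fold higher in eSLCs. Such a bound sets the mean of the brighter group against the lowest signal that counted as well above background on each array of the dimmer group. The common floor of the fitted values is the highest of these limits over the 8 arrays, so a bound can exceed a fitted fold. In cultures measured in bulk, a smaller share of cells that make an RNA and less of it per cell cannot be told apart.

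AQP11, the intracellular aquaporin, was measured with 1 probe. Its signal was 8783 in I2, 2964 in I9, 2349 in N2, 3176 in N7, 11580 in P1 and 5592 in P4. SC P5 gave 17.4 and SC P10 gave 27.6. All 6 eSLC lines lay far above both SC arrays. The difference was 7.78 on the log2 scale (SE 0.50, 95% interval 6.55 to 9.01), a 220-fold higher signal (adjusted p = 0.000121, limma).

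AQP1, the water channel of red cells and endothelium, ran the other way. Its brightest probe gave 56860 in SC P5 and 65750 in SC P10. Among eSLCs it was well above background in 3 of 6 lines, with 38.7 in I9, 49.4 in N2 and 188 in N7, and not in I2, P1 or P4. The fitted difference was -10.96 on the log2 scale (SE 0.60, 95% interval -12.43 to -9.49; adjusted p = 6.29e-05, limma), in which the arrays of I2, P1 and P4 entered at the floor. Against PA-eSLCs, where neither array measured it, the SC signal was at least 5582-fold higher. A further AQP1 probe gave 303 and 380 in SCs, was not well above background in any eSLC line, and was at least 33.9-fold lower there.

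Markers of cell types known for AQP1 were read beside it. The red cell markers ALAS2 and SLC4A1 were not well above background in either SC array. ALAS2 moved against AQP1, with 165 to 1816 in eSLCs, where it was higher (difference 5.52 on the log2 scale, adjusted p = 0.00181, limma). It entered the test through the eSLC arrays alone. The 5 endothelial markers together gave a summed signal of 115 and 138 in SCs and 114 to 353 in eSLCs. Of these, PECAM1 and CDH5 were not well above background on either SC array, VWF (61.8 and 75.9) and TEK (11.8 and 22.2) were on both, and TEK was on no eSLC array. PECAM1 was higher in eSLCs, with 33.5 to 133.7 (difference 2.53 on the log2 scale), while its other probe differed by -0.16. Fibroblast markers moved with AQP1 between the cell types, with a summed signal of 691900 and 855300 in SCs and 13430 to 69710 in eSLCs. Among the lines, N7 had the highest AQP1 signal, and its fibroblast sum was the highest (69710) through FN1 (64260). COL1A1 (918.5) and THY1 (102.5) were lowest in N7, LUM (99.0) was highest there, and the other fibroblast markers were neither. N7 also had the highest sum of liver and gut markers (118700 against 3964 to 9885 in the other lines, with APOA1 at 112600). The part of other cell types in the AQP1 signal of N7 was not tested.

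For the epithelial members the lists of other cell types read as follows. Keratinocyte markers, which mark another epithelium rich in AQP3, had a summed signal of 1454 to 3513 in eSLCs and 3055 and 6361 in SCs, and 0 of 4 tested were called. KRT14 carried most of this sum, while KRT10 was well above background in 6 eSLC lines and TP63 in 5, and neither was on an SC array. Of 9 tested trophectoderm markers, 7 were higher in eSLCs, as were AQP3, AQP11 and ATP1B3. HAND1 (difference 1.26 on the log2 scale) and TFAP2A (-0.86) were not called. CDX2 and PAG2 were not well above background in SCs. Among the lines, the trophectoderm sum was highest in N2 (1144000), the lowest line for AQP11. Most of it came from KRT18 (389600), KRT8 (372500) and PAG2 (274800), and the housekeeping sum was also highest in N2 (906200). Single markers differed in order. KRT18, PAG2 and TFAP2A were highest in N2, and KRT8 and GATA2 in P1. GATA3 and HAND1 were highest in I9, TFAP2C in I2 and CDX2 in P4. Of these, TFAP2C alone was lowest in N2 (9294). The part of trophectoderm cells in the differences of AQP3, AQP11 and ATP1B3 was not tested. The housekeeping genes served as a check of the scaling, and 0 of 7 were called, beside 19.7% of all genes higher and 15.7% lower. Their median difference was 0.34 on the log2 scale, with a range from -0.22 (SDHA) to 0.915 (GAPDH). YWHAZ differed by 0.76 (adjusted p = 0.0254, limma) and missed the call only by the 2-fold limit.

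ATP1B3, the β3 subunit of the pump, was bright on all 8 arrays. Its brightest probe gave 162700 in I2, 86150 in I9, 88350 in N2, 98070 in N7, 278100 in P1 and 176500 in P4, and 19960 and 21210 in SC P5 and SC P10. The lowest eSLC line was still above both SC arrays, which lay close together. The difference was 2.71 on the log2 scale (SE 0.30, 95% interval 1.97 to 3.45), a 6.54-fold higher signal (adjusted p = 0.000954, limma). The 3 further probes of ATP1B3 were well above background on all 8 arrays and gave differences of 3.00 to 3.29 on the log2 scale, with adjusted p of 0.00129 to 0.00272 by limma. All 4 probes therefore put ATP1B3 higher in eSLCs. ATP1B2, the β2 subunit, lay between -2.33 and 2.70 normalized units on every array, which is under the floor, and its 1 probe shows no order among samples.

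Each slide held 3 eSLC arrays and 1 SC array, so the size of the difference could also be read within each slide. On slide 1 the eSLC mean minus the SC value was 8.11 for AQP3, 7.97 for AQP11, -10.27 for AQP1 and 2.48 for ATP1B3 on the log2 scale. On slide 2 these differences were 8.86, 7.60, -11.64 and 2.94. The direction was the same on both slides for all 4 genes. That had to be so, since every eSLC array lay above, or for AQP1 below, both SC arrays. It is therefore no separate support.

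The study set the origins of the embryos against each other, and each origin was first compared with SCs. In IVP-eSLCs all 4 genes were called (17.7% of all genes were called higher and 14.6% lower), with differences of 8.87 for AQP3, 7.86 for AQP11, 2.52 for ATP1B3 and -11.40 for AQP1. In NT-eSLCs all 4 were called again (15.8% of all genes higher, 14.0% lower), with 7.82 for AQP3, 6.96 for AQP11, 2.18 for ATP1B3 and -9.31 for AQP1. In PA-eSLCs the same held (20.4% of all genes higher, 14.9% lower), with 8.77 for AQP3, 8.52 for AQP11, 3.43 for ATP1B3 and -12.17 for AQP1, the last from arrays at the floor. These 3 comparisons share the SC arrays. The difference of ATP1B3 between NT-eSLCs and SCs had an adjusted p of 0.00689 (limma), which was 0.0656 without SC P5, 0.0563 without SC P10 and between 0.00481 and 0.267 over all alternatives tried.

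**Figure D2:**
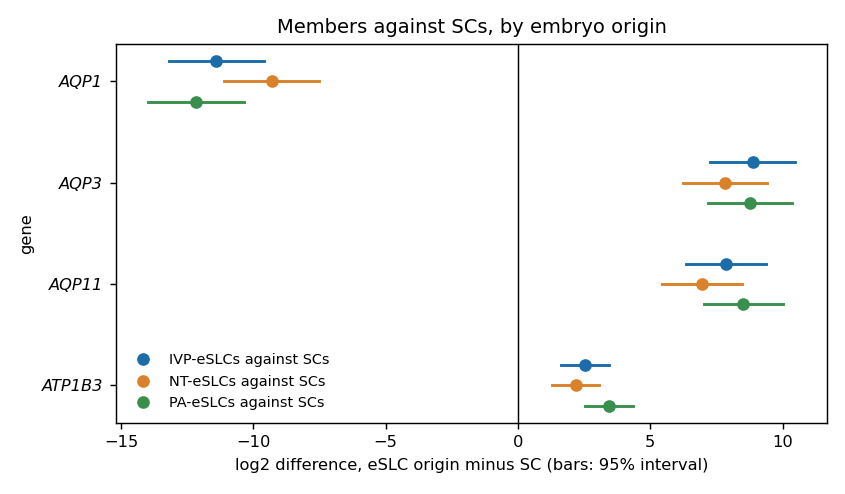
Log2 difference of AQP1, AQP3, AQP11 and ATP1B3 between each eSLC origin and SCs, as points with 95% intervals from the limma fit of all 8 arrays. AQP3, AQP11 and ATP1B3 lie right of 0 and AQP1 left of 0 in all 3 origins, and the intervals of the origins overlap for each gene.

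Between origins no member was called in the fit of all 8 arrays, and neither was any other gene. Without the array of N2, N7 was the only NT array, and that fit, which called some genes for NT- against IVP-eSLCs, is described below. In the fit of all 8 arrays the share called was 0.0% of 10949 genes for NT- against IVP-eSLCs, for PA- against IVP-eSLCs and for PA- against NT-eSLCs alike. At an unadjusted p under 0.05 limma listed 306, 568 and 1091 genes in these comparisons, with 1, 1 and 3 members among them. With 2 arrays per origin the intervals are wide, and the adjusted p does not show that the origins were alike.

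AQP3 had its highest mean in IVP-eSLCs (14.00 ± 0.92 on the log2 scale; SD, n = 2), followed by PA-eSLCs (13.90 ± 0.86), NT-eSLCs (12.95 ± 0.84) and SCs (5.13 ± 0.31). NT- minus IVP-eSLCs was -1.05 (95% interval -2.65 to 0.55) and PA- minus NT-eSLCs 0.95 (95% interval -0.65 to 2.55), so neighbouring origins did not differ beyond their spread. NT-eSLCs, the lowest origin, differed from SCs.

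AQP11 was ordered PA-eSLCs (12.97 ± 0.74 on the log2 scale; SD, n = 2), IVP-eSLCs (12.32 ± 1.11), NT-eSLCs (11.42 ± 0.31) and SCs (4.45 ± 0.47). PA- minus NT-eSLCs was 1.56 (95% interval 0.05 to 3.06), with an unadjusted p of 0.0444 and an adjusted p of 0.501 from limma. The steps from PA- to IVP-eSLCs and from IVP- to NT-eSLCs were smaller and did not pass either.

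ATP1B3 took the same order, with PA-eSLCs at 17.76 ± 0.46 (log2, SD, n = 2), IVP-eSLCs at 16.85 ± 0.65, NT-eSLCs at 16.51 ± 0.11 and SCs at 14.33 ± 0.06. PA- minus NT-eSLCs was 1.25 (95% interval 0.35 to 2.15), and PA- minus IVP-eSLCs was 0.90 (95% interval 0.00 to 1.81). Their adjusted p values by limma were 0.501 and 0.852. In both comparisons the PA arrays, both on slide 2, were the higher ones with the brightest probe. With each further probe, I2 lay above P4.

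AQP1 was ordered SCs, NT-eSLCs (6.59 ± 1.37 on the log2 scale; SD, n = 2), IVP-eSLCs (4.50 ± 1.09, with I2 at the floor) and PA-eSLCs, both at the floor. PA- minus NT-eSLCs was -2.86 (adjusted p = 0.501, limma). The size of this difference is set by the floor, since it compares signals of 49.4 and 188 with arrays that did not measure the gene.

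The 6 eSLC lines spread widely, also within an origin. The brightest probe of AQP3 spanned 4.92-fold from N7 to I2, and the further probe 8.01-fold between the same lines. The AQP11 probe spanned 4.93-fold from N2 to P1. The 4 ATP1B3 probes spanned 3.23- to 4.90-fold, each with P1 at the top.

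AQP11 and ATP1B3 ranked the lines alike. P1, I2 and P4 held the first 3 places and N7, I9 and N2 the last 3, for the AQP11 probe and for each of the 4 ATP1B3 probes. The 3 further ATP1B3 probes and the AQP11 probe gave the identical order P1, I2, P4, N7, I9, N2. Each set of 3 lines included both slides, a line at passage 30 or 31 and a line at passage 36. AQP3 kept I2 and P1 on top with both probes, but P4 took the fifth place and N7 the last. AQP1 was measured only in the lines that were low for AQP11 and ATP1B3, namely I9, N2 and N7. With 1 array per line, differences between lines could not be tested.

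**Figure D3:**
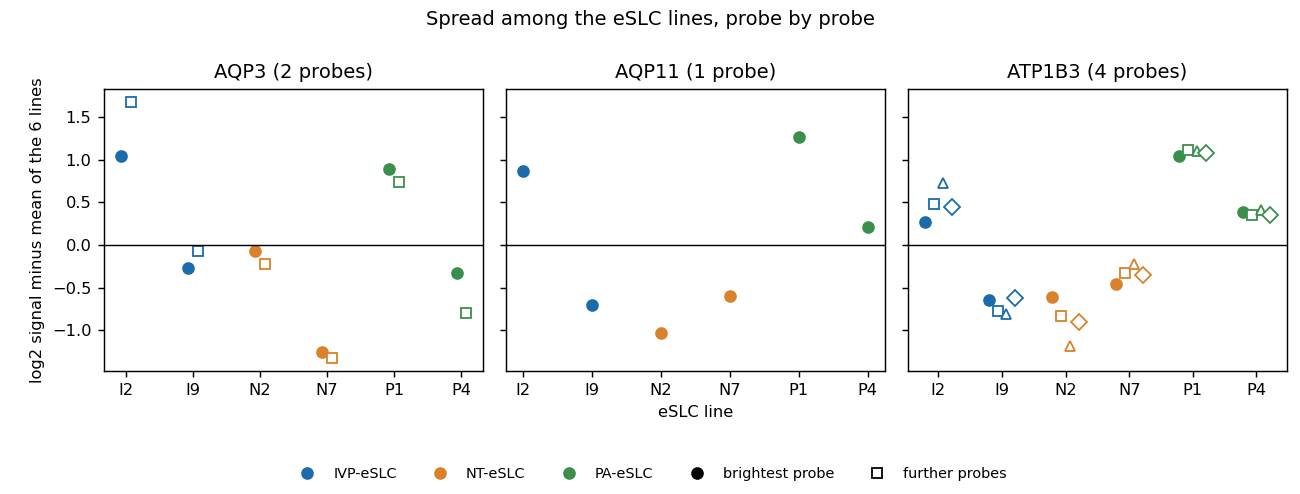
Log2 signal of each eSLC line minus the mean of the 6 lines, for the 2 probes of AQP3, the probe of AQP11 and the 4 probes of ATP1B3. Filled symbols are the brightest probe and open symbols the further probes, and each symbol is 1 array. P1, I2 and P4 lie above the mean and I9, N2 and N7 below it for AQP11 and ATP1B3, while AQP3 is highest in I2 and P1 and lowest in N7.

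For each tested member the 3 genes with the most similar profile were found by Pearson r of log2 signal over the 8 arrays, in which the SC arrays stand far from the eSLC arrays and carry most of r. AQP3 was closest to SCNN1A (r = 0.998), the α subunit of the epithelial sodium channel, to UPK1A (r = 0.997), a uroplakin of urothelium, and to CALML5 (r = 0.996), a calmodulin-like protein of epidermis. SCNN1A shared its highest lines with AQP3, with 13600 in I2 and 15410 in P1, and its lowest line, N7, with 4847. AQP11 was closest to BFSP1, a filament protein of the lens, MSH6, a mismatch repair protein, and MED10, a Mediator subunit (r = 0.998, 0.998 and 0.997). ATP1B3 was closest to AP2S1, a clathrin adaptor subunit, GGT5, a γ-glutamyltransferase, and BAG2, a co-chaperone (r = 0.998, 0.998 and 0.998). AQP1 was closest to MFSD2A, a lipid transporter, TSKU, a secreted protein, and NELL2, a secreted glycoprotein (r = 0.998, 0.997 and 0.996). MFSD2A was at the floor in I2, P1 and P4, as was AQP1, and reached 74.9 in N7 and 1054 and 1162 in SCs.

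The members were then set beside 45 other genes of water and ion transport, of which 37 had a named probe and 28 were tested. Of these, 6 were called higher in eSLCs, 6 lower and 16 not, which is 21.4% in each direction beside the 19.7% and 15.7% of all genes tested. Their median difference was 0.38 on the log2 scale. That median is near the 0.23 of all genes tested. Among the 12 called genes, 10 had more than 1 probe, 0 had probes of opposite sign, and 4 had a probe that differed by less than 2-fold.

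**Figure D4:**
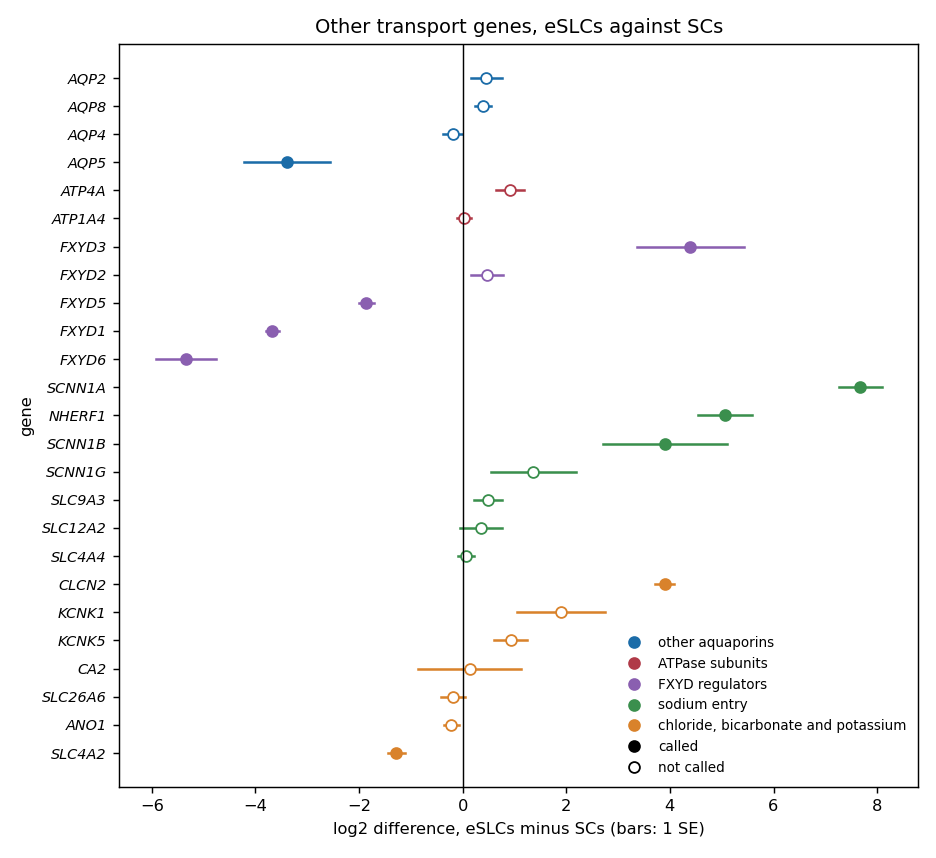
Log2 difference, eSLCs minus SCs, of 25 of the 28 other transport genes tested, with bars of 1 SE from limma. Colours mark the 5 lists and filled points the genes called. SCNN1A, NHERF1, FXYD3, SCNN1B and CLCN2 are called on the right, and FXYD6, FXYD1, AQP5, FXYD5 and SLC4A2 on the left.

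The FXYD regulators split, with 1 of 5 tested higher and 3 lower. These few genes make 20.0% and 60.0%, beside 19.7% and 15.7% of all genes. FXYD3, an epithelial member, ranged from 720 in N7 to 17160 in P1, against 187 and 142 in SCs, with a difference of 4.39 (log2, SE 1.03, adjusted p = 0.0163, limma). Its 5 probes ranged from 0.47 to 7.17. FXYD6 was lower by the most, with 189 to 858 in eSLCs and 19600 and 19950 in SCs, a difference of -5.34 (SE 0.58). FXYD1, the regulator known from heart and muscle, gave 173 and 166 in SCs and was well above background in 1 eSLC line, N7, at 13.4. FXYD5, which also affects cell adhesion, was 6018 to 10700 in eSLCs and 27420 and 28420 in SCs, a difference of -1.86 (SE 0.14).

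Of 8 tested genes for sodium entry, 3 were higher and 0 lower, or 37.5% and 0.0%, beside 19.7% and 15.7% of all genes. SCNN1A gave 4847 to 15410 in eSLCs and 54.1 and 34.7 in SCs, a difference of 7.68 (log2, SE 0.42, adjusted p = 6.07e-05, limma), while its other probe gave 1.17. SCNN1B, the β subunit of the same channel, was measured in all 6 eSLC lines but on neither SC array. Its signal in eSLCs was at least 23.6-fold higher. SCNN1B entered the test through the eSLC arrays alone (adjusted p = 0.0391, limma). Its signal differed widely among lines, with 734 in N2 and 609 in I9 against 39.0 in N7 and 92.5 in P1, and its other probe differed from SCs by 0.08. SCNN1G, the γ subunit, gave 14.1 to 91.4 in eSLCs and did not pass (difference 1.36, adjusted p = 0.216, limma). NHERF1, a scaffold of sodium exchangers at the apical membrane, was 13120 to 40280 in eSLCs and 924 and 735 in SCs, a difference of 5.06 (SE 0.52). SLC9A3, such an exchanger, differed by 0.49 and was not called.

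Among the other aquaporins, 0 of 4 tested were higher and 1 lower, or 0.0% and 25.0%, beside 19.7% and 15.7% of all genes. The lower gene was AQP5, a channel of secretory epithelia. It gave 19.8 to 221 in eSLCs and 1499 and 826 in SCs, a difference of -3.40 (log2, SE 0.83, adjusted p = 0.019, limma). AQP2, AQP4 and AQP8 differed by 0.46, -0.19 and 0.40 and were not called. Of the genes for chloride, bicarbonate and potassium, 1 of 7 tested was higher and 1 lower, or 14.3% each, beside 19.7% and 15.7% of all genes. CLCN2, a chloride channel, gave 2025 and 2489 in the PA lines, 4249 to 5645 in the other lines and 267 and 232 in SCs, a difference of 3.90 (SE 0.19), while another of its probes gave 0.20. SLC4A2, an exchanger of chloride for bicarbonate, was 3946 to 6415 in eSLCs and 13070 and 11130 in SCs, a difference of -1.28 (SE 0.17, adjusted p = 0.00191, limma). Another of its probes gave -0.35, which is under 2-fold.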

How the data were processed

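The authors hybridized 8 Cy3-labelled samples, quantified the scans with Agilent Feature Extraction (version 11.5.1.1 per the file headers) and normalized them with GeneSpring GX. They deposited the scanner output of each array, which holds linear signal intensity per spot without normalization between arrays, and a table of normalized intensity whose method is not given in the sources used here. The array design was drawn on the build bosTau6 (UMD 3.1) and the gene table at hand is of another assembly, so no coordinates are given.

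Here the background-subtracted intensity was used, because in 6 files the processed signal did not follow it (Spearman correlation 0.16 to 0.22, against 0.97 in I2 and N2). Control spots and 1 to 11 outlier spots per array were left out, spots of a probe were averaged, and each array was scaled to its 75th percentile, which lay 75.3- to 136-fold over the dimmest probe that was well above background. Accessions without versions named 26743 of 43653 probes, and a gene was represented by its brightest probe. A gene was tested if, in 1 condition or more, all arrays had it well above background, and the test was limma 3.58.1 in R 4.3.3 with a mean per origin and all 8 arrays in 1 fit. On simulated data with 10949 genes, the fit recovered 70.5% of 200 genes changed 4-fold for eSLCs against SCs, with 3 false calls. AQP1 passed the filter through NT-eSLCs and SCs. FXYD1 passed it through SCs alone, and SCNN1B, ALAS2, PECAM1, CDX2 and PAG2 through eSLCs alone. For such genes the filter itself favours a call in that direction, so their p-values are no separate support. The named genes are the members, the called genes of the transport and marker lists (up to 12 transport genes, of which some are not reported here), and the 3 genes most like each member. Other list genes that are named were chosen after their values were seen. Members and lists were chosen with earlier results of these data known. Alternatives covered scaling, filters, floor, probes, signal column, SCs as 1 sample, slide, the methods' t-test and leaving out each array. The number of arrays limits precision. Figures were drawn with matplotlib 3.10.9 in Python 3.11.15.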

Additional observations from a re-analysis of the deposited data

How the results depend on the processing

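Against SCs, 380 of 400 differences of the members under alternatives kept their direction and their side of the threshold, 16 kept the direction and lost the call, 1 went to 0, and 3 reversed. The number of members called stayed at 4 in 78 of 97 cases and was 3 in 13, in 8 of which only 3 members were tested, and 2 or fewer in 6. With the processed signal it was 2 in each of the 4 comparisons with SCs, both higher, and AQP1 turned to 0.75 for all eSLCs, 0.54 for IVP-eSLCs, 1.70 for NT-eSLCs and 0.00 for PA-eSLCs (log2). Over 33487 probes, the AQP1 probes among them, that column did not follow the background-subtracted signal in 6 files (Spearman correlation 0.00 to 0.01). Over the other 10166 probes, described below, it did so at 0.81 to 0.88 in all 8 files. With the methods' t-test and Benjamini-Hochberg adjustment 1 member was called for IVP-eSLCs and 0 for NT-eSLCs, against 4 each by limma and 4 each by the same test at an unadjusted p under 0.05. Leaving out 1 array left 3 to 4 members called for NT-eSLCs and 4 in each of the other comparisons with SCs. ATP1B3 for NT-eSLCs was lost without SC P5 or SC P10 and with the SC arrays as 1 sample (adjusted p = 0.061), and for IVP-eSLCs in the authors' table (adjusted p = 0.055), both by limma.

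Between origins 283 of 296 differences stayed as they were. By a 2-fold difference alone, 2 members passed when NT- were set against IVP-eSLCs, where 246 of 10416 genes were higher and 348 lower. When PA- were set against NT-eSLCs, 3 members passed, where 707 of 10401 genes were higher and 520 lower. AQP1, with arrays at the floor, was among the members in both. ATP1B3 for NT- against IVP-eSLCs turned to 0.63 with the processed signal and 0.26 in the authors' table, and ranged from -0.81 to 0.11 when 1 array was left out, with the positive end without I2. AQP1 for PA- against IVP-eSLCs turned to 0.090 with the slide as a block and 0.22 with normexp, which was run on median signals after the files proved to hold no mean signal. When 1 array was left out, AQP3 for PA- against IVP-eSLCs ranged from -0.76 to 0.55 (positive without I2 or P4) and AQP11 from -0.13 to 1.44 (negative without I9). The causes were not tested. Quantile normalization moved the median of all genes from 0.23 to 0.12 for eSLCs against SCs, and the authors' table to 0.07. In this comparison 2154 genes were called higher, against 1345 with the SC arrays as 1 sample, 1284 without SC P5 and 272 with the processed signal. Requiring every array to be well above background removed AQP1 from the test, and the authors' table without the 10166 probes described below held no AQP11 probe. Over all genes, the authors' table called 35 higher and 102 lower for PA- against NT-eSLCs, 114 and 14 for NT- against IVP-eSLCs, and, comparing PA- with IVP-eSLCs, 7 and 6. Without N2, PA- against NT-eSLCs gave 19 and 130, and NT- against IVP-eSLCs 130 and 21, with N7 left as the only NT array and assumed to vary like the others. No paired analysis was possible because the labels number every sample 1, which leaves the slide as the only block.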

Other observations

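The authors' table of normalized intensity gave another order of the PA lines for part of the members, a comparison made after seeing the data. Both were scaled to the 75th percentile of each array. In the scanner output the brightest probe of AQP3 was 0.431 times as high in P4 as in P1, and in the authors' table it was 2.80 times as high. For AQP11 these ratios of P4 to P1 were 0.483 and 2.51, and for the brightest ATP1B3 probe 0.635 and 1.93. The further AQP3 probe gave 0.344 in the scanner output and 0.279 in the authors' table, and the 3 further ATP1B3 probes gave 0.590 to 0.616 and 0.499 to 0.545. The brightest probes of AQP3, AQP11 and ATP1B3 belong to 10166 probes whose value in the authors' table is 1 common multiple of the processed signal in 7 of the 8 files, and the further probes do not. Over 10065 of these probes, the authors' column of P1, centred on the lines, correlated with the scanner signal of P1 at r = -0.01 and with that of P4 at r = 0.59, and the column of P4 correlated at r = 0.15 with P4 and at r = 0.62 with P1. Over 17435 other probes each column followed its own array, with r of 0.96 to 1.00. These correlations are across probes, which are not independent. In the authors' table as given, without this scaling, SC P5 and SC P10 were within 1% of each other for 90.8% of the 10166 probes. For the 33487 others this held for 0.382%. The difference between eSLCs and SCs had the same direction in the authors' table as with the background-subtracted signal for all 4 members tested.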
